A study of Mus musculus with 4 samples.

Results

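Of the 32285 genes counted in mouse small-intestinal crypt cells, 9 are described here as glucocorticoid-responsive: Nr3c1, Fkbp5, Zbtb16, Tsc22d3, Sgk1, Klf9, Mt1, Mt2 and Hsd11b2. They were chosen by name, but with earlier results of these data known, and all 9 were found in the gene list of the deposited matrices. The series design says that gut epithelial cells came from mice before and after sleep deprivation, and single-cell RNA sequencing gave 4 libraries. The labels name them 2D-1 and 2D-2, and 0D-1 and 0D-2. The meaning of D is nowhere stated, and 2D and 0D are read here as after and before the deprivation. The labels used here give no strain, genotype, age or number of animals behind a library. All groups share the tissue and the EDTA release of crypts, and no library carries a stated mutation, drug or hormone treatment. As separate animals are not stated, the p-values below reflect variation between libraries that could be technical. No corticosterone measurement was used here.

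Glucocorticoids, corticosterone in mice, cross the cell membrane and bind the glucocorticoid receptor, the product of Nr3c1. The receptor waits in the cytoplasm in a complex with HSP90 and its co-chaperones, moves to the nucleus when it binds hormone, and switches genes on at glucocorticoid response elements or represses others. Hsd11b2 encodes the enzyme that turns active corticosterone into an inert form before it meets a receptor. Fkbp5, Zbtb16, Tsc22d3, Sgk1, Klf9 and the metallothionein genes Mt1 and Mt2 are widely used readouts of receptor activity in other tissues, and metallothioneins also answer to zinc through metal response elements. In the gut, glucocorticoids are known for promoting epithelial maturation and ion transport and for restraining inflammation.

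Promoter sequences are shown for Sgk1, where 1 window holds a full glucocorticoid response element, and for Mt1 and Mt2, whose windows hold several metal response element cores. RefSeq windows of the build GRCm38.p6, from 250 bases before an annotated start to 50 after it, matched 6 of the 9 genes with 13 windows. Nr3c1, Zbtb16 and Hsd11b2 are not among them. Both strands were searched for the full glucocorticoid response element, the arm AGAACA followed after 3 bases of any kind by TGTTCT, for the single arm AGAACA, and for the metal response element cores TGCGCNC and TGCACNC. Every full element also holds the single arm on each strand. The full element was found in 3 of 32851 windows in the whole table (0.00913%), and 1 of those 3 is a Sgk1 window. It lies at base -189 of the start at chr10:21993890, where the upstream bases chr10:21993640-21993889 on the plus strand read as follows, with the element in capitals.
Sgk1: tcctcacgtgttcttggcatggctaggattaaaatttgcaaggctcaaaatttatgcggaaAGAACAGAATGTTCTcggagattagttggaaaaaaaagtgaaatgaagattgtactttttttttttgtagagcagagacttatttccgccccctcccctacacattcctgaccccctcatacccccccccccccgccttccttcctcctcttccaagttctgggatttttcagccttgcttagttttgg
Mt2 and Mt1 lie next to each other on the plus strand of chromosome 8. Their upstream bases are chr8:94172368-94172617 for Mt2 and chr8:94178839-94179088 for Mt1, with metal response element cores of either strand in capitals.
Mt2: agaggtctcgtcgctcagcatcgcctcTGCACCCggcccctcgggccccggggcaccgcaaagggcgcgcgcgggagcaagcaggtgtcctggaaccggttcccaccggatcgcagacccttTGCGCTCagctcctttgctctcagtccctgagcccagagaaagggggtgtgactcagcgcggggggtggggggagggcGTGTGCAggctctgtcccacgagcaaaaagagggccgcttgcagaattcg
Mt1: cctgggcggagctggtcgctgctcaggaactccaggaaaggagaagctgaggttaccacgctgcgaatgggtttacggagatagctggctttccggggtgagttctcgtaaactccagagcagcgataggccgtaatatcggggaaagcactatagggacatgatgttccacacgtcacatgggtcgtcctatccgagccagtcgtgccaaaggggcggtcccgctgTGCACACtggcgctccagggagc
The whole Mt2 window held 4 cores, 3 of them in the bases shown, and the whole Mt1 window held 3, of which 1 is shown and the others lie just past the annotated start. At least 4 cores were found in 0.517% of all windows, at least 3 in 1.97%, and at least 1 in 25.7%. The single arm AGAACA, found in 19.0% of all windows, was in 1 of 3 Tsc22d3 windows and in 3 of 6 Sgk1 windows. The Fkbp5 window and the Klf9 window held none of these letters, which says nothing about elements elsewhere in those genes.

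The 4 libraries kept 29731 cells, 7025 and 7988 in 2D-1 and 2D-2 and 7586 and 7132 in 0D-1 and 0D-2, with 93090534 to 113758758 UMIs a library. A UMI (unique molecular identifier) stands for 1 transcript molecule caught in a cell. Cells were grouped into 25 clusters without using the members, and clusters were named from marker genes. Clusters 11 and 16 (942 and 1508 cells) stayed unnamed and are in no class. Cluster 16 held all 7 stem markers beside genes of dividing cells, so the stem class lacks these cells. Each of the 7 epithelial classes showed all of its own markers, and none had fewer than 244 cells in a library. Paneth cells gave 24.2% and 30.8% of UMIs in 2D-1 and 2D-2, against 14.3% and 13.7% in 0D-1 and 0D-2. Enterocytes gave 15.7% and 7.44% in 2D-1 and 2D-2, against 17.0% and 17.4% in 0D-1 and 0D-2. A level below is in CPM, the share of the UMIs of a class in a library that came from a gene, on the usual CPM scale. The 2D-1 library stood apart. Its enterocytes were 720 of 841 in cluster 10, led by Ly6a and Reg3b, which held 15 of 491 enterocytes of 2D-2 and 24 of 1197 and 12 of 1084 of 0D-1 and 0D-2. Its goblet cells were 2187 of 2530 in cluster 3, led by Ddx60 and Irf7. In 2D-1 enterocytes the 20 interferon response genes had a median log2 difference of 2.87 from the 0D mean, against -0.11 in 2D-2.

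**Figure D1:**
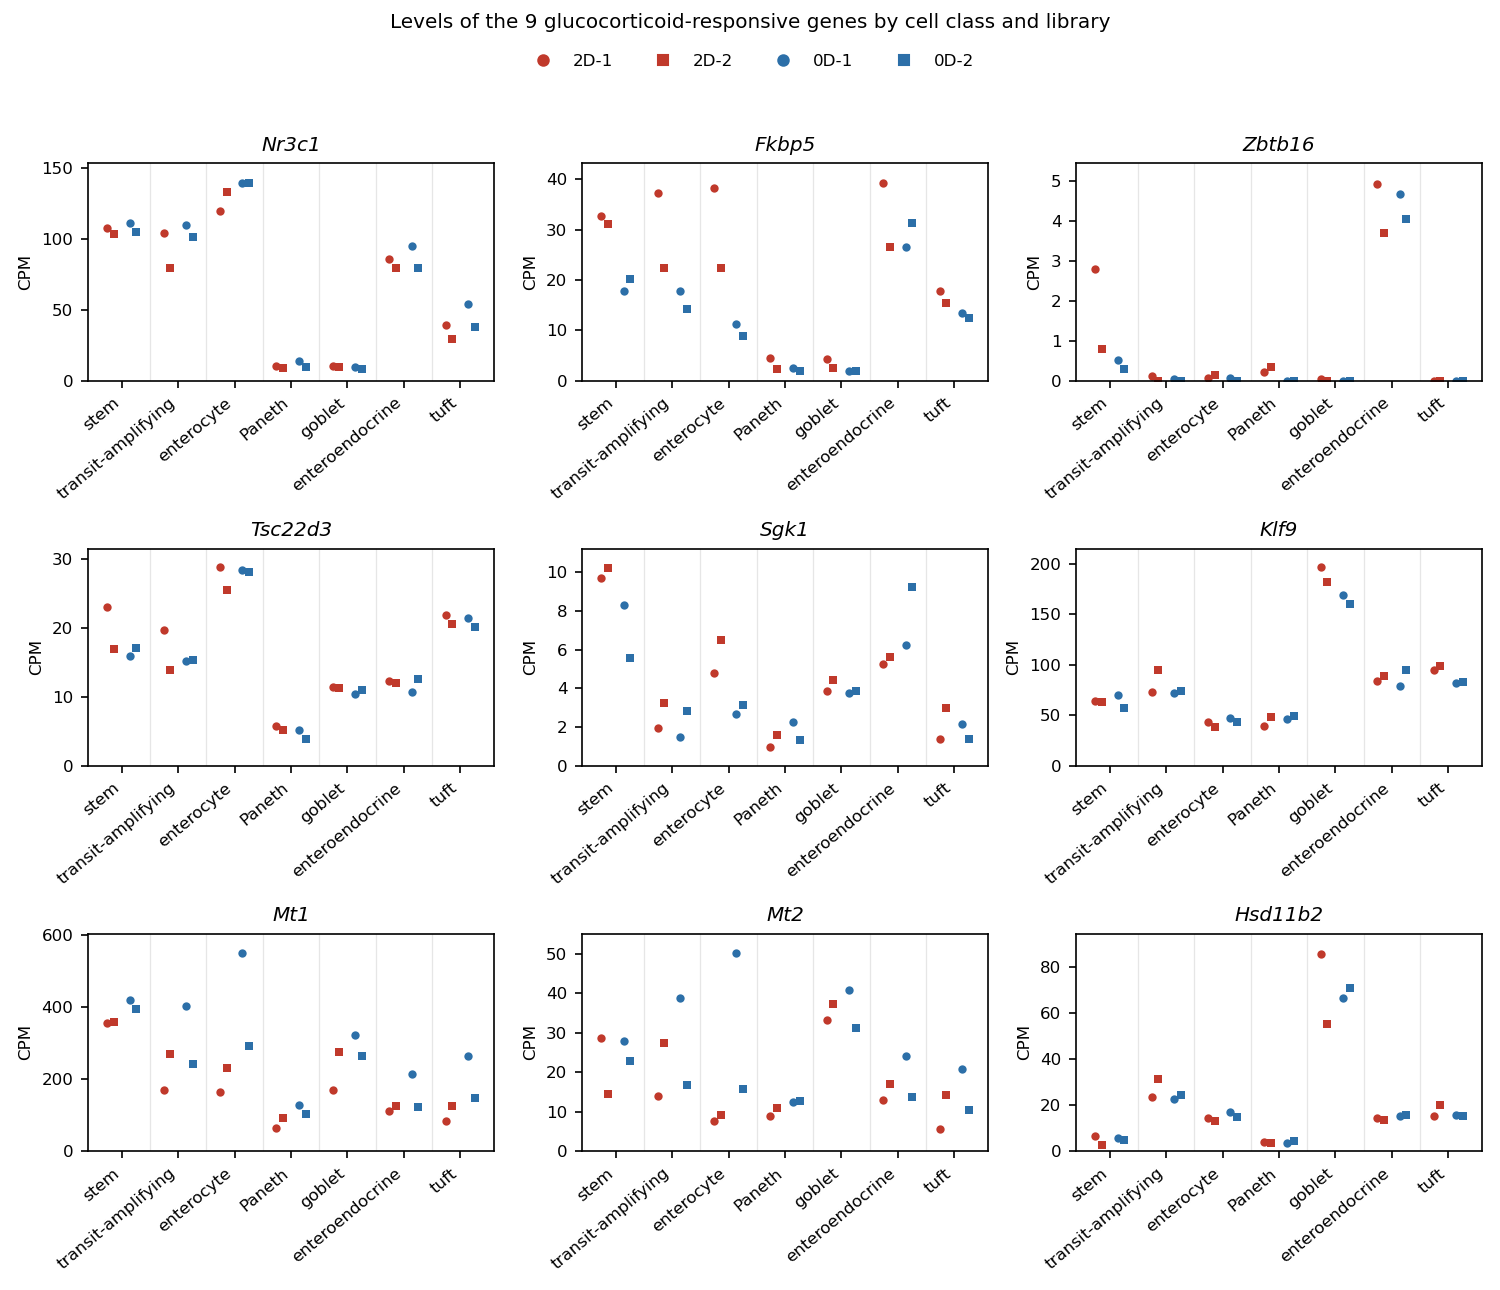
Levels of the 9 genes in CPM (vertical axes, each starting at 0) in the 7 epithelial classes, with 1 point for each library, red for 2D and blue for 0D, circles for replicate 1 and squares for replicate 2. Nr3c1 and Fkbp5 are low in Paneth and goblet cells, Klf9 and Hsd11b2 are highest in goblet cells, and Zbtb16 is highest in enteroendocrine cells.

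Nr3c1 (ENSMUSG00000024431, minus strand of chromosome 18, GRCm38), the glucocorticoid receptor, was present in every epithelial class. Enterocytes, the absorptive cells, had the highest level, with 120 and 133 CPM in 2D-1 and 2D-2 and 139 CPM in both 0D libraries. Stem cells followed with 108 and 103 CPM in 2D-1 and 2D-2, against 111 and 105 CPM in 0D-1 and 0D-2. The ranges of stem and transit-amplifying cells overlapped, as did those of transit-amplifying and enteroendocrine cells. Within each library, however, stem cells were above transit-amplifying cells, by the most in 2D-2 (103 against 79.1 CPM) and by little in 0D-1 (111 against 110 CPM). Transit-amplifying cells were above enteroendocrine cells in 2D-1, 0D-1 and 0D-2 and level with them in 2D-2, at 79.1 CPM each. Tuft cells stood lower at 40.1 ± 10.4 CPM (SD, n = 4 libraries). Paneth and goblet cells overlapped at the bottom with 10.6 ± 2.1 and 9.43 ± 0.85 CPM, the goblet mean being 14.1-fold under that of enterocytes. Paneth clusters differed, with 39.5 and 36.9 CPM pooled over 0D and 2D in cluster 22, against 3.66 and 2.77 CPM in cluster 15. Cells of cluster 22 had a median of 2309 UMIs and a median doublet score of 0.159. CPM is a share of a cell's transcripts, and the 11 Paneth markers alone took 54.6% to 58.3% of the UMIs of Paneth cells. The 10 goblet markers took 12.7% to 17.1% of those of goblet cells.

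In the sum of all cells Nr3c1 was 64.7 and 41.3 CPM in 2D-1 and 2D-2, against 77.6 and 69.5 CPM in 0D-1 and 0D-2, so the groups did not overlap, with 2D lower, as for 38.2% of all genes. The edgeR quasi-likelihood log2 change, 2D over 0D, was -0.38 ± 0.17 (SE; Benjamini-Hochberg adjusted p = 0.292). With the 0D levels held and only the class sizes of each library changing, the log2 ratio of mean CPM was -0.36, against -0.47 as measured. With 0D class sizes held and each library's own class levels, it was -0.11. Within classes the groups overlapped in 6 of 7, the exception being enterocytes. Class sizes here are shares of UMIs, which hold both the number of cells and the RNA in each. By number, enterocytes were 12.0% and 6.15% of cells in 2D-1 and 2D-2, against 15.8% and 15.2% in 0D-1 and 0D-2. Paneth cells were 11.9% and 20.6% of cells in 2D-1 and 2D-2, against 7.41% and 8.97% in 0D-1 and 0D-2. Without 2D-1 the log2 change was -0.63 and passed the adjusted threshold (adjusted p = 0.00301), as did 4045 genes in that fit. Without 2D-2 it was -0.17 (adjusted p = 0.243).

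Hsd11b2 (ENSMUSG00000031891, chr8:105518755-105523988, plus strand), which inactivates corticosterone, was highest in goblet cells. Goblet cells had 85.7 and 55.0 CPM in 2D-1 and 2D-2, against 66.3 and 70.7 CPM in 0D-1 and 0D-2, so the groups overlapped. Every other class lay below the lowest goblet library. Transit-amplifying cells came next with 25.4 ± 3.95 CPM, and within them the clusters that carry goblet markers, numbers 18 and 1, had 57.3 and 48.5 CPM over the 4 libraries pooled. Enterocytes and enteroendocrine cells both averaged 14.7 CPM, and stem and Paneth cells 4.90 and 3.74 CPM, with overlap. The gene with the most similar pattern over the 28 sums of class and library was Golph3l (Pearson r = 0.98), out of 10477 genes compared. In all cells Hsd11b2 had 26.5 and 25.2 CPM in 2D-1 and 2D-2, against 25.1 and 28.8 CPM in 0D-1 and 0D-2. Its log2 change was 0.06 ± 0.10 (edgeR adjusted p = 0.770), a sign that turned under another scaling (-0.06 with library totals). Among the other genes of steroid handling, Nr3c2, the mineralocorticoid receptor that this enzyme shields, was also highest in goblet cells (17.2 ± 3.68 CPM). Hsd11b1, the enzyme of the opposite direction, had 0 UMIs in all 7 classes.

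Across the 9 genes, 0 passed the adjusted threshold of 0.05 in the sum of all cells, where 0% of the 15454 genes tested did (0 genes). At an unadjusted p under 0.05 the count was 1 of 9 members, Zbtb16, against 20.3% of all genes (3132). DESeq2 called 765 genes in the same sums, none of them a member. Within the 7 classes 56 of 63 pairs of a member and a class passed the filter on low counts, and 0 of those 56 passed the adjusted threshold. Called shares of all genes were 0.622% in stem cells (0.399% higher and 0.223% lower), 0.177% in enterocytes (0.152% higher and 0.0253% lower), 0.279% in enteroendocrine cells (0.164% higher and 0.115% lower) and 0.262% in tuft cells (0.221% higher and 0.0403% lower). They were 0% in transit-amplifying, Paneth and goblet cells. At an unadjusted p under 0.05, 12 of the 56 pairs passed. They were 4 for Fkbp5, 5 for Mt1, 2 for Mt2 and 1 for Sgk1. At that level stood 11.7% of all genes in stem cells, 10.3% in transit-amplifying cells, 14.0% in enterocytes, 6.96% in Paneth cells, 7.84% in goblet cells, 8.49% in enteroendocrine cells and 9.16% in tuft cells. Groups not overlapping with 2D higher made up 27.5% of genes in stem cells, 22.7% in transit-amplifying cells, 22.7% in enterocytes, 21.4% in Paneth cells, 32.0% in goblet cells, 15.5% in enteroendocrine cells and 21.6% in tuft cells. With 2D lower the shares were 15.2%, 19.8%, 22.7%, 15.1%, 14.6%, 23.4% and 19.8% in the same order of classes. DESeq2 called 1 of the 56 pairs, Fkbp5 in enterocytes.

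**Figure D2:**
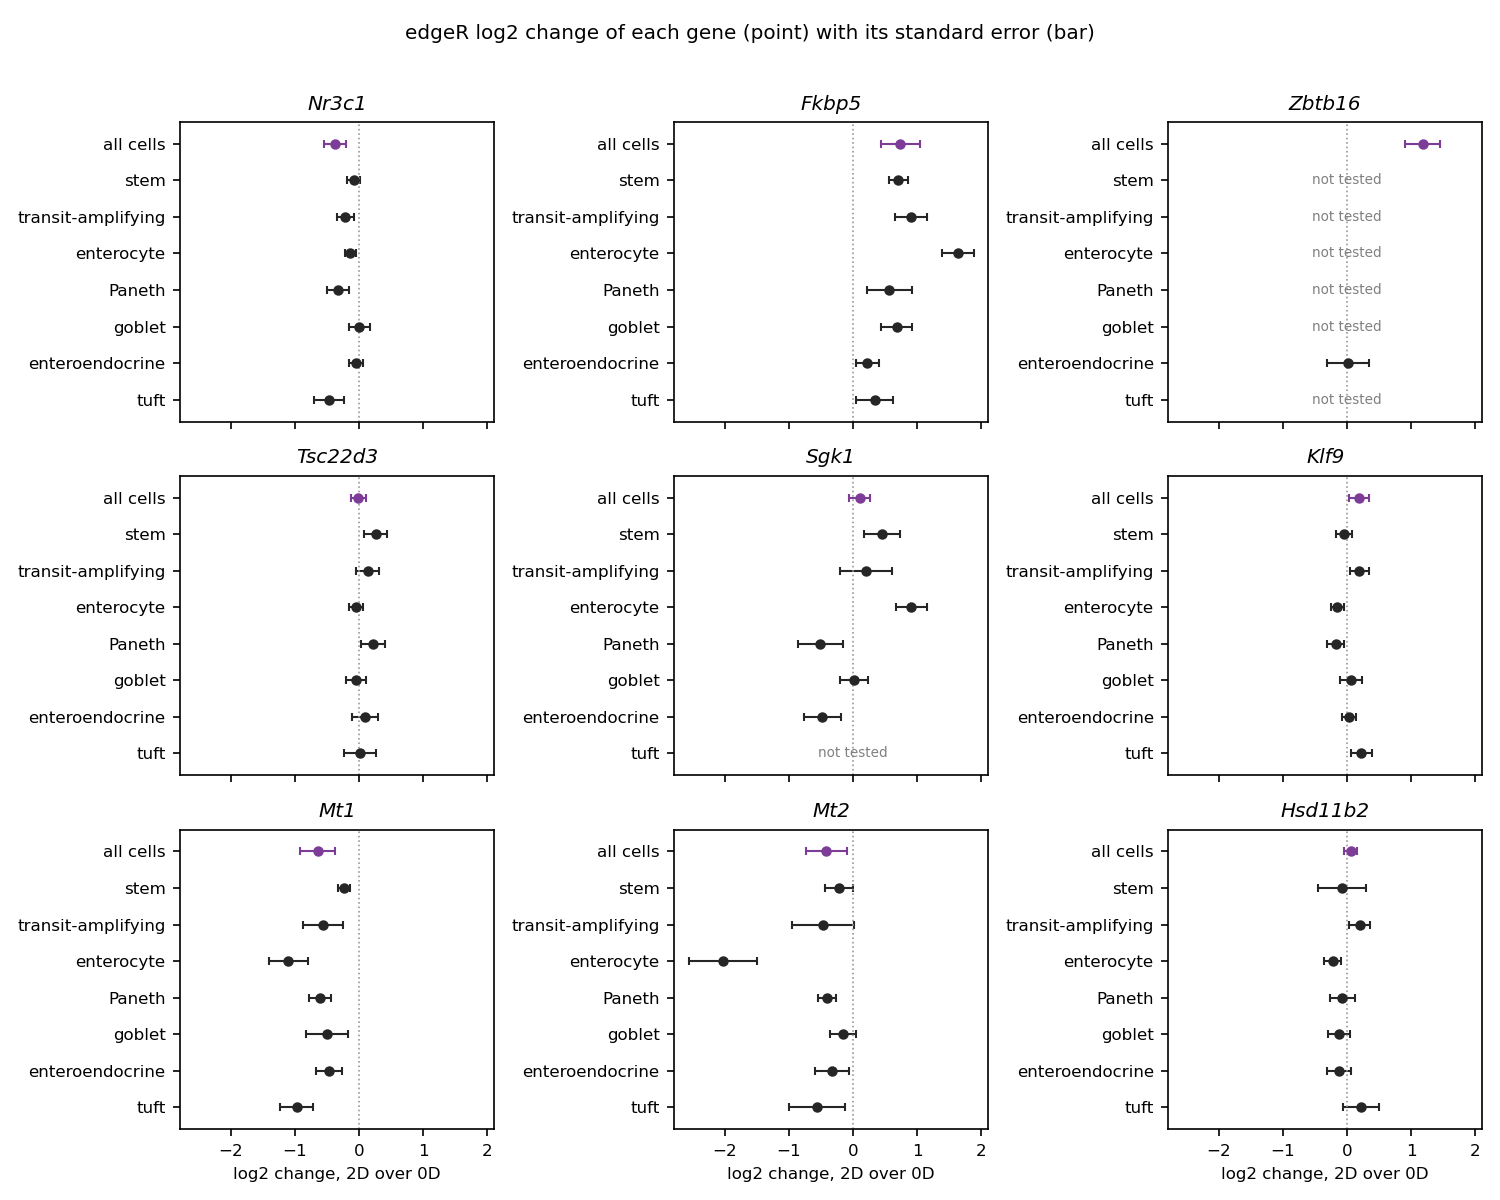
edgeR log2 change, 2D over 0D (horizontal axes), of each gene in all cells (purple) and in each class (black), with points for the estimate and bars for its standard error. Fkbp5 lies above 0 in all 7 classes, between 0.22 and 1.63, and Mt1 lies below 0 in all 7, between -1.10 and -0.23.

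Fkbp5 (ENSMUSG00000024222, chr17:28399094-28517527, minus strand) encodes a co-chaperone that is induced by the receptor and lowers its affinity for hormone, a short feedback loop. Over all cells it had 22.2 and 10.8 CPM in 2D-1 and 2D-2, against 11.7 and 9.38 CPM in 0D-1 and 0D-2, with overlap. The log2 change was 0.74 ± 0.30 (edgeR adjusted p = 0.257). Without 2D-2 it was 1.10, but it was 0.24 without 2D-1 and 0.34 in cells thinned to 2000 UMIs (edgeR adjusted p = 0.381). Enterocytes, where its fitted change was largest of the 7 classes, had 38.3 and 22.4 CPM in 2D-1 and 2D-2 (665 and 155 UMIs), against 11.2 and 8.79 CPM in 0D-1 and 0D-2 (217 and 169 UMIs). Both 2D libraries were above both 0D libraries, and the 2D-2 value alone was higher than either. The log2 change was 1.63 ± 0.25, a 3.10-fold ratio, with an unadjusted p of 0.000295 and an edgeR adjusted p of 0.0795, short of the threshold.

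The enterocyte result passed the threshold in several alternatives. DESeq2 gave a log2 change of 1.61 (adjusted p = 2.53e-06). Classes drawn by per-cell marker gates gave 1.64 (edgeR adjusted p = 0.0348), cells thinned to 2000 UMIs gave 1.79 (0.0219), and cells with at most 10% mitochondrial UMIs gave 1.70 (0.0419). Without 2D-1 the change was 1.17, without 2D-2 it was 1.92 and without 0D-1 it was 1.82. Fits with a library left out also called more genes over classes than the chosen fit. The enterocyte result did not pass without 0D-2 (1.43), at a coarser clustering (1.51, edgeR adjusted p = 0.128) or with the highest doublet scores left out (1.72, 0.0966). With cluster 10 left out, a step chosen after its values were seen, 121 enterocytes of 2D-1 remained. The level was then 29.3 and 22.3 CPM in 2D-1 and 2D-2, against 11.4 and 8.90 CPM in 0D-1 and 0D-2, a ratio of 2.55 between means. Paneth marker transcripts found in enterocytes moved with the groups, at 3985 and 5063 CPM in 2D-1 and 2D-2 and 1571 and 1981 CPM in 0D-1 and 0D-2, and their part in the result was not tested.

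Stem cells, which renew the epithelium, had 32.7 and 31.1 CPM of Fkbp5 in 2D-1 and 2D-2, against 17.9 and 20.2 CPM in 0D-1 and 0D-2. The libraries of each group lay close to each other and the groups did not overlap (log2 change 0.70 ± 0.15, edgeR adjusted p = 0.0538). Of 14 alternatives 3 passed, which were without 2D-2, with no filter on low counts (edgeR adjusted p = 0.00197) and at a coarser clustering (0.0467). The other 11 did not pass, and the log2 change ran from 0.57 to 0.78 over the 14. Transit-amplifying cells, the dividing progenitors, had 37.2 and 22.3 CPM in 2D-1 and 2D-2, against 17.8 and 14.2 CPM in 0D-1 and 0D-2. Their log2 change was 0.90 ± 0.25 (edgeR adjusted p = 0.468). It was 0.48 (adjusted p = 0.0160) without 2D-1 and 1.18 (adjusted p = 7.12e-08) without 2D-2. Goblet cells had 4.27 and 2.58 CPM in 2D-1 and 2D-2, against 1.89 and 1.90 CPM in 0D-1 and 0D-2 (log2 change 0.68 ± 0.25, edgeR adjusted p = 0.604). Without 2D-2 the goblet change was 0.89, but it was 0.43 without 2D-1 and 0.078 in thinned cells (edgeR adjusted p = 0.967). Tuft cells had 17.8 and 15.4 CPM in 2D-1 and 2D-2 and 13.4 and 12.3 CPM in 0D-1 and 0D-2. Groups of Fkbp5 libraries did not overlap in 5 of 7 classes, all with 2D higher, where 15.5% to 32.0% of all genes did so in a class. They overlapped in Paneth and enteroendocrine cells. As the classes share the same libraries, they are not independent, and the share of all genes apart in as many classes was not computed.

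**Figure D3:**
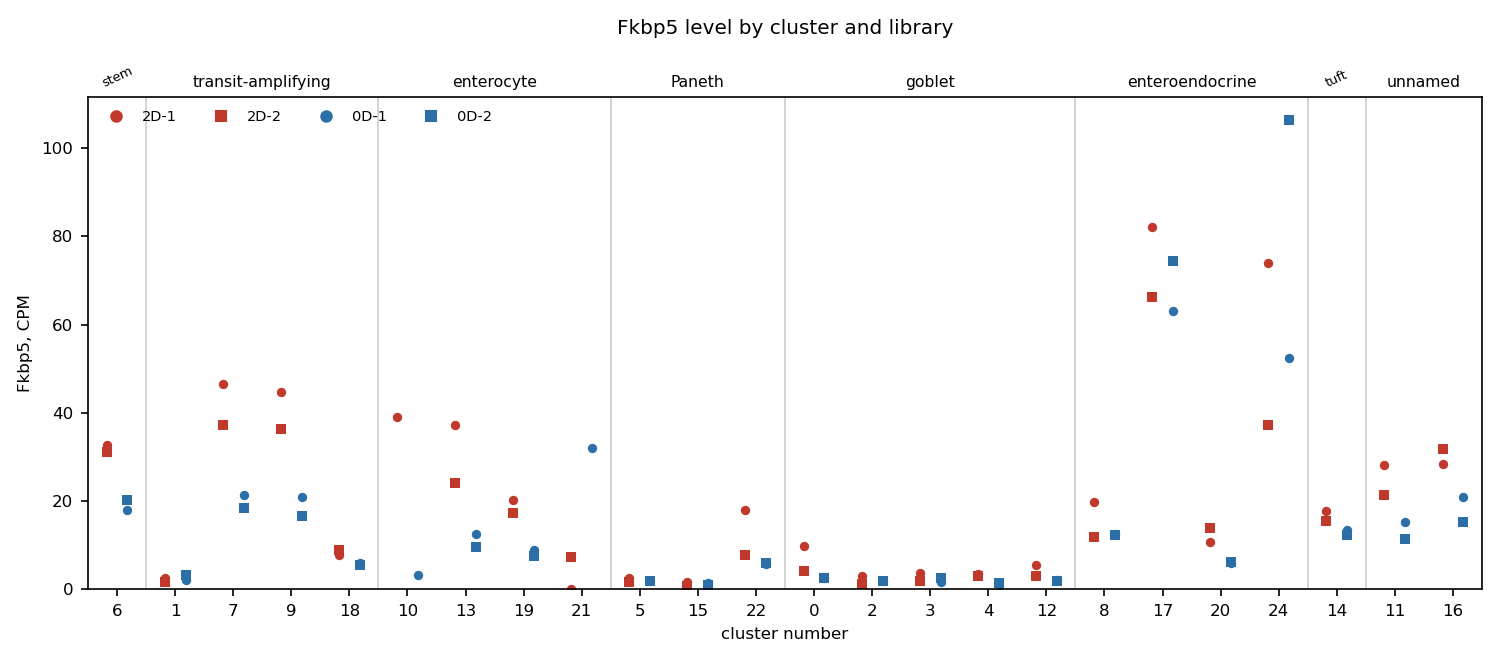
Fkbp5 level in CPM (vertical axis, from 0) in each cluster of at least 100 cells (horizontal axis, cluster numbers grouped by class), with 1 point for each library of at least 20 cells there, red for 2D left of blue for 0D. The 2D points are above the 0D points in dividing clusters 7 and 9 and in enterocyte clusters 13 and 19, while the points mix in hormone cluster 17.

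Single clusters were fitted as an addition made after the data were seen, and they separate progenitor kinds. Fkbp5 passed the adjusted threshold in clusters 7, 9 and 13, and its fitted log2 change was below 0 in clusters 2 (-0.67), 24 (-0.50) and 15 (-0.12), none of which passed. In cluster 7, dividing cells led by histone genes and Top2a, it had 46.5 and 37.3 CPM in 2D-1 and 2D-2, against 21.5 and 18.5 CPM in 0D-1 and 0D-2. The log2 change was 1.09 ± 0.14 (edgeR adjusted p = 0.0434, where 0.108% of genes passed). Cluster 9, dividing cells led by Dmbt1 and Cdkn3, had 44.6 and 36.4 CPM in 2D-1 and 2D-2, against 20.99 and 16.7 CPM in 0D-1 and 0D-2. Its log2 change was 1.11 ± 0.18 (edgeR adjusted p = 0.0245, with 0.277% of genes passing). Cluster 13, enterocytes led by Reg1 and Chp2, had 37.3 and 24.1 CPM in 2D-1 and 2D-2, against 12.4 and 9.53 CPM in 0D-1 and 0D-2. Its log2 change was 1.30 ± 0.21 (edgeR adjusted p = 0.0281, with 0.361% of genes passing). The 2D-1 value there comes from 60 cells and 36 UMIs. The dividing clusters with goblet markers were low throughout. Cluster 1 had 2.63 and 1.69 CPM in 2D-1 and 2D-2 and 2.13 and 3.29 CPM in 0D-1 and 0D-2. Cluster 18 had 7.75 and 8.88 CPM in 2D-1 and 2D-2, against 5.98 and 5.57 CPM in 0D-1 and 0D-2.

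Enteroendocrine cells, the hormone producers, held the highest Fkbp5 level of a class, 30.9 ± 5.996 CPM over the 4 libraries, overlapping stem cells. Within the class, cluster 17 is led by the hormones Gip, Cck and Gcg. Its level was 82.1 and 66.4 CPM in 2D-1 and 2D-2, against 63.1 and 74.5 CPM in 0D-1 and 0D-2, with overlap. The somatostatin cluster 24 had 73.9 and 37.3 CPM in 2D-1 and 2D-2, against 52.5 and 106 CPM in 0D-1 and 0D-2, from 8 to 12 UMIs each. In single-cluster fits the log2 change was 0.12 ± 0.16 in cluster 17 and -0.50 ± 0.69 in cluster 24. It was 0.45 ± 0.31 in cluster 8, led by Chga and Chgb (edgeR adjusted p = 0.875). In cluster 20, led by Ghrl and Neurog3, it was 0.97 ± 0.44 (edgeR adjusted p = 0.683). For the class as a whole the log2 change was 0.22 ± 0.18 (edgeR adjusted p = 0.810). Cluster 17 weighed most in that sum, with 172 of 254 Fkbp5 UMIs in 2D-1 and 88 of 151 in 2D-2. In 0D-1 and 0D-2 it gave 81 of 119 and 99 of 139.

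Whether the Fkbp5 change differs between classes was tested in 1 joint fit of the 7 classes with library as a block. Fkbp5 was the single member of 9 to pass (edgeR adjusted p = 0.0223), in a test that 61 of 14741 genes passed (0.414%; 8.72% at an unadjusted p under 0.05). This result did not hold in every alternative. The adjusted p was 0.0742 with DESeq2, 0.414 without 0D-1, 1 without 0D-2 and 0.0760 without 2D-1. Over 18 clusters with at least 10 Fkbp5 UMIs in each group, the log2 ratio of pooled CPM was above 0 in 17 and ran between -0.63 and 1.44. One of the 17 was Paneth cluster 15, at 0.0036. The UMI minimum leaves out, among others, goblet cluster 2 and transit-amplifying cluster 1, whose pooled levels were lower in 2D. The share of all genes above 0 in as many clusters was not computed. The Fkbp5 log2 ratio had a Pearson correlation of 0.15 with the log2 Nr3c1 level in 0D, and Spearman's rho was 0.34. These clusters share libraries. Over the 28 sums of class and library the Fkbp5 level followed that of Nr3c1 (r = 0.88 on log2(CPM + 1)), and both were low in goblet and Paneth cells. The genes most like Fkbp5 were 2900052L18Rik (r = 0.93) and Uhrf1bp1l (r = 0.92), and those most like Nr3c1 were Slc16a10 and Add3 (both r = 0.99).

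Zbtb16 (ENSMUSG00000066687, chr9:48654297-48836222, minus strand), a zinc finger repressor that the receptor induces in many tissues, was rare. The libraries held 63 and 41 UMIs in 2D-1 and 2D-2, against 32 and 22 in 0D-1 and 0D-2, or 0.570 and 0.440 CPM against 0.281 and 0.199 CPM. The groups did not overlap, with 2D higher, as for 16.3% of all genes, and the log2 change in all cells was 1.18 ± 0.28 (edgeR adjusted p = 0.166). Enteroendocrine cells were the main source, with 4.94 and 3.69 CPM in 2D-1 and 2D-2 and 4.68 and 4.06 CPM in 0D-1 and 0D-2. There the groups overlapped and the log2 change was 0.02 ± 0.33 (edgeR adjusted p = 0.996). Within that class the somatostatin cluster 24 was highest at 21.05 CPM pooled, with 6 and 2 UMIs in 2D-1 and 2D-2 and 3 and 4 in 0D-1 and 0D-2. The other 6 classes did not pass the filter on low counts. In stem cells Zbtb16 had 11 and 2 UMIs in 2D-1 and 2D-2, against 4 and 2 in 0D-1 and 0D-2. In Paneth cells it had 6 and 10 UMIs in 2D-1 and 2D-2, against 0 in both 0D libraries, where 3 counts, the limit a count of 0 allows, would be 0.184 and 0.197 CPM. Class sizes alone gave a log2 ratio of 0.32, against 1.07 as measured. Its pattern over classes was most like those of Fstl4 (r = 0.96) and Nrp1 (r = 0.96).

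Tsc22d3 (ENSMUSG00000031431, chrX:140539528-140600659, minus strand) encodes GILZ, a leucine zipper protein that carries part of the anti-inflammatory action of glucocorticoids. Its level in all cells was 15.6 and 11.6 CPM in 2D-1 and 2D-2, against 14.8 and 14.7 CPM in 0D-1 and 0D-2. The groups overlapped in all cells and in 6 of 7 classes, and the log2 change was -0.01 ± 0.11 (edgeR adjusted p = 0.964). Enterocytes were highest among epithelial classes, with 28.8 and 25.6 CPM in 2D-1 and 2D-2, against 28.4 and 28.1 CPM in 0D-1 and 0D-2. Tuft cells followed at 21.02 ± 0.81 CPM, and Paneth cells were lowest at 5.02 ± 0.76 CPM. The small B and plasma cell cluster, with 41 cells, had 93.0 CPM pooled, with 10 and 2 UMIs in 2D-1 and 2D-2 and 5 and 7 in 0D-1 and 0D-2. The genes closest in pattern were Snx20 (r = 0.97) and Acp6 (r = 0.96).

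Sgk1 (ENSMUSG00000019970, chr10:21882184-21999903, plus strand), the serum and glucocorticoid-regulated kinase, promotes sodium uptake through epithelial transporters. In all cells it had 3.29 and 3.71 CPM in 2D-1 and 2D-2, against 3.55 and 3.52 CPM in 0D-1 and 0D-2 (log2 change 0.10 ± 0.16, edgeR adjusted p = 0.742; -0.02 with library totals). In enterocytes it had 4.78 and 6.4997 CPM in 2D-1 and 2D-2, against 2.69 and 3.12 CPM in 0D-1 and 0D-2. The groups did not overlap there (log2 change 0.91 ± 0.24, edgeR adjusted p = 0.202, and 1.17 without 2D-1). Sgk1 in this class was concentrated in the 108 cells of cluster 21, led by Apoa4, Ly6m and Ada, genes of villus enterocytes. That cluster gave 0.651% of enterocyte UMIs and 27.1% of their Sgk1 UMIs. Its level was 204 and 165 CPM in 2D-1 and 2D-2 (32 and 23 UMIs), against 80.2 and 98.9 CPM in 0D-1 and 0D-2 (5 UMIs each). Cluster 21 was 4.16% and 6.72% of the enterocytes of 2D-1 and 2D-2, against 2.01% and 1.48% of those of 0D-1 and 0D-2. With it left out, which was chosen after its values were seen, enterocyte Sgk1 was 2.96 and 3.24 CPM in 2D-1 and 2D-2, against 2.44 and 2.87 CPM in 0D-1 and 0D-2, a ratio of 1.17 between means. With cluster 10 left out and cluster 21 kept, it was 28.0 and 6.73 CPM in 2D-1 and 2D-2 (41 and 45 UMIs), against 2.68 and 3.11 CPM in 0D-1 and 0D-2, a ratio of 5.99, with 121 enterocytes remaining in 2D-1. Stem cells had 9.71 and 10.2 CPM in 2D-1 and 2D-2, against 8.30 and 5.57 CPM in 0D-1 and 0D-2. Enteroendocrine cells ran the other way, with 5.25 and 5.63 CPM in 2D-1 and 2D-2, against 6.24 and 9.25 CPM in 0D-1 and 0D-2, and neither class reached an unadjusted p under 0.05. Eps8 (r = 0.81) and Cers6 (r = 0.80) were the genes most like it.

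Klf9 (ENSMUSG00000033863, chr19:23141226-23168134, plus strand), a transcription factor induced by glucocorticoid and thyroid hormone, was highest in goblet cells. They had 197 and 182 CPM in 2D-1 and 2D-2, against 169 and 161 CPM in 0D-1 and 0D-2. Both 2D values were above both 0D values, but on the fitted scale the log2 change was 0.06 ± 0.17 (edgeR adjusted p = 0.907). All other classes lay below the lowest goblet library. Tuft, enteroendocrine and transit-amplifying cells averaged 89.7, 86.7 and 78.7 CPM and each overlapped the next in that order. Enterocytes were lowest at 42.9 ± 3.73 CPM, overlapping Paneth cells. Among goblet clusters, number 12, led by Atf3, Areg and Fos, was highest with 237 CPM pooled. In all cells Klf9 was 83.9 and 100 CPM in 2D-1 and 2D-2, against 87.3 and 88.5 CPM in 0D-1 and 0D-2 (log2 change 0.19 ± 0.16, edgeR adjusted p = 0.519). Leaving out 2D-1 gave 0.39, and leaving out 2D-2 gave -0.05. The patterns of Klf9 and Hsd11b2 were alike (r = 0.79), and the genes most like Klf9 were Spry1 and Mllt3 (both r = 0.95).

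Mt1 (ENSMUSG00000031765, chr8:94179082-94180327, plus strand) encodes a small protein that binds zinc and copper. It was lower in 2D than in 0D libraries over all cells, with 153 and 205 CPM in 2D-1 and 2D-2, against 363 and 248 CPM in 0D-1 and 0D-2. The log2 change was -0.65 ± 0.27 (edgeR adjusted p = 0.269), and -0.98 without 2D-2. Enterocytes had 164 and 230 CPM in 2D-1 and 2D-2, against 550 and 290 CPM in 0D-1 and 0D-2 (log2 change -1.10 ± 0.30, adjusted p = 0.212). The 0D-1 library was far above 0D-2, and the gap between them was wider than that between 2D-2 and 0D-2. Without 2D-1 the enterocyte change was -0.87, without 2D-2 it was -1.38 and without 0D-2 it was -1.51. It was -0.54 without 0D-1. Outside cluster 10 the level was 124 and 231 CPM in 2D-1 and 2D-2, against 553 and 292 CPM in 0D-1 and 0D-2.

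Stem cells were the tightest class for Mt1, at 355 and 359 CPM in 2D-1 and 2D-2, against 419 and 394 CPM in 0D-1 and 0D-2 (log2 change -0.23 ± 0.09, edgeR adjusted p = 0.326). Tuft cells had 82.1 and 125 CPM in 2D-1 and 2D-2, against 263 and 146 CPM in 0D-1 and 0D-2 (log2 change -0.98 ± 0.26, edgeR adjusted p = 0.256). That change was -1.35 without 0D-2, -1.35 without 2D-2 and -0.50 without 0D-1. Enteroendocrine cells had 112 and 125 CPM in 2D-1 and 2D-2, against 213 and 123 CPM in 0D-1 and 0D-2, with overlap (log2 change -0.48 ± 0.20, edgeR adjusted p = 0.541). That change was -0.83 without 0D-2 and -0.58 without 2D-2, but -0.0061 without 0D-1. Paneth cells had 62.8 and 90.7 CPM in 2D-1 and 2D-2, against 127 and 102 CPM in 0D-1 and 0D-2 (log2 change -0.62 ± 0.17, edgeR adjusted p = 0.516). The Paneth change was -0.87 without 2D-2. Groups did not overlap in 4 of 7 classes, all with 2D lower, where 14.6% to 23.4% of all genes did so in a class. Transit-amplifying, goblet and enteroendocrine cells overlapped. Here too the classes share libraries, and the share of all genes apart in as many classes was not computed. Among single clusters Mt1 fell past the adjusted threshold in 1 of 22, the defensin-rich Paneth cluster 15. It had 42.8 and 49.9 CPM there in 2D-1 and 2D-2, against 79.3 and 68.3 CPM in 0D-1 and 0D-2 (log2 change -0.78 ± 0.14, edgeR adjusted p = 0.0116, where 0.242% of genes passed).

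Mt2 (ENSMUSG00000031762, chr8:94172664-94173568, plus strand), its neighbour and close relative, had Mt1 as the gene most like it (r = 0.75). The genes most like Mt1 were Nme2 and Gm10076 (both r = 0.87). Gm10076 is a predicted gene whose reads may come from a related gene, so its counts are uncertain. In all cells Mt2 had 16.3 and 21.7 CPM in 2D-1 and 2D-2, against 34.9 and 20.4 CPM in 0D-1 and 0D-2. The groups overlapped, the high value being 0D-1, and the log2 change was -0.42 ± 0.32 (edgeR adjusted p = 0.493; 0.03 without 0D-1). In enterocytes Mt2 had 7.48 and 9.10 CPM in 2D-1 and 2D-2, against 50.3 and 15.8 CPM in 0D-1 and 0D-2. The groups did not overlap (log2 change -2.04 ± 0.53, edgeR adjusted p = 0.202), and the gap between the 0D libraries was wider than that between 2D-2 and 0D-2. That change was -1.86 without 2D-1, -2.16 without 2D-2, -2.65 without 0D-2 and -0.93 without 0D-1. All 130 Mt2 UMIs of 2D-1 enterocytes came from cluster 10. The other 121 enterocytes of that library had 0, where 3 counts would be 2.05 CPM. In Paneth cells Mt2 had 8.79 and 10.8 CPM in 2D-1 and 2D-2, against 12.5 and 12.8 CPM in 0D-1 and 0D-2 (log2 change -0.40 ± 0.14, edgeR adjusted p = 0.626). Goblet cells had the highest mean level at 35.7 ± 4.27 CPM, overlapping transit-amplifying cells and with overlap between the groups. In 0D-1 the enterocytes, at 50.3 CPM, were above the goblet cells, at 40.9 CPM.

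**Figure D4:**
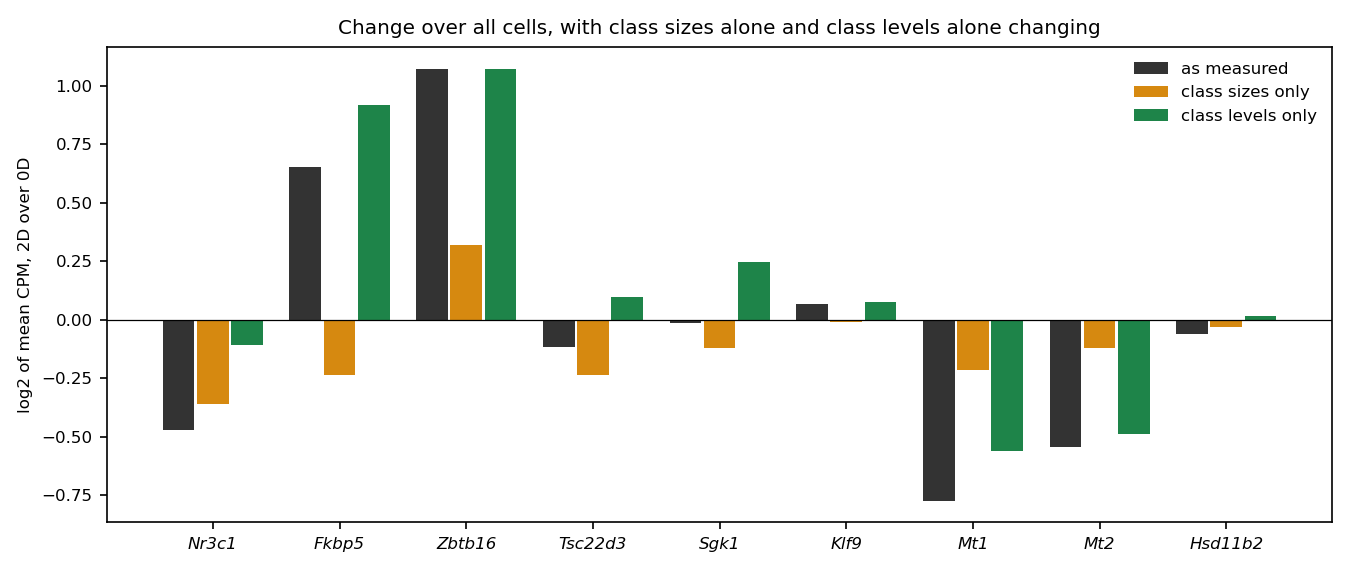
Log2 ratio of mean CPM over all cells, 2D over 0D (vertical axis), for each gene, as measured (black), with class sizes alone changing at 0D levels (orange) and with class levels alone changing at 0D sizes (green). Class sizes are shares of UMIs, not of cells. For Nr3c1 the class-size bar (-0.36) is longer than the level bar (-0.11), and for Fkbp5 they point in opposite directions (-0.24 and 0.92).

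Class sizes, taken as shares of UMIs, and class levels were each changed alone, with the other held at 0D. The results are separate calculations and not parts that add up to the measured ratio. For Fkbp5 the measured log2 ratio was 0.65, against -0.24 with class sizes alone changing and 0.92 with levels alone changing. The level calculation also holds shifts between clusters inside a class, such as the 720 of 841 enterocytes of 2D-1 in cluster 10. The part of such shifts was not tested. For Mt1 the measured ratio was -0.77, with -0.21 from sizes alone and -0.56 from levels alone. For Mt2 they were -0.54, -0.12 and -0.49 in the same order. Tsc22d3 had -0.24 with class sizes alone and 0.10 with levels alone, and Sgk1 -0.12 and 0.25. Klf9 and Hsd11b2 moved by less than 0.10 in every version.

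Other genes of the pathway were read from lists. None of 13 receptor, chaperone and cofactor genes passed the edgeR threshold in all cells or in any class, and their median log2 change in all cells was 0.05, against 0.0052 over all genes. Hspa8, the constitutive HSP70 chaperone that loads the receptor onto HSP90, had 1443 and 1910 CPM in 2D-1 and 2D-2 enterocytes, against 1010 and 720.1 CPM in 0D-1 and 0D-2. Its log2 change was 0.95 ± 0.20 (edgeR adjusted p = 0.147) there and 0.76 ± 0.23 (adjusted p = 0.190) in all cells. Of 12 genes of steroid synthesis and conversion 0 passed. Cyp11b1 and Hsd3b1 had 0 UMIs in the 7 classes, and Cyp11a1, the first enzyme of steroid synthesis, was found mainly in tuft cells (2.13 ± 0.70 CPM, 16 UMIs). Nr5a2 (LRH-1), the factor known to drive steroid synthesis in crypts, had its highest mean in enterocytes, at 53.6 and 47.5 CPM in 2D-1 and 2D-2 and 47.8 and 43.6 CPM in 0D-1 and 0D-2, overlapping transit-amplifying cells (48.6 CPM in 2D-1).

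Among 24 other genes induced by glucocorticoids elsewhere, 1 rose in enterocytes and 1 fell in stem cells, and 0 passed in all cells or in the other 5 classes. Cebpd, a transcription factor of the acute phase response, rose in enterocytes to 48.2 and 45.5 CPM in 2D-1 and 2D-2, against 26.1 and 23.6 CPM in 0D-1 and 0D-2 (log2 change 0.92 ± 0.11, edgeR adjusted p = 0.0466). Nfkbia, the inhibitor of NF-kappaB, fell in stem cells to 94.8 and 71.6 CPM in 2D-1 and 2D-2, against 127 and 138 CPM in 0D-1 and 0D-2 (log2 change -0.70 ± 0.12, edgeR adjusted p = 0.0278). Its change also differed between classes (edgeR adjusted p = 0.0176). The list's median log2 change was 0.23 in all cells, -0.06 in stem cells and -0.13 in enterocytes, against 0.0052, 0.0059 and 0.0047 over all genes. In all cells Bcl6 had 2.23 and 2.20 CPM in 2D-1 and 2D-2, against 1.45 and 1.25 CPM in 0D-1 and 0D-2 (log2 change 0.83, edgeR adjusted p = 0.152). Cdkn1c, a cell cycle inhibitor, had 34.0 and 33.0 CPM in 2D-1 and 2D-2, against 21.6 and 26.4 CPM in 0D-1 and 0D-2 (log2 change 0.60, edgeR adjusted p = 0.152). None of the 10 ion transport genes and none of the 12 zinc handling genes passed in any of these fits. In all cells Slc30a10, a metal exporter of the zinc transporter family, had 0.371 and 0.226 CPM in 2D-1 and 2D-2, against 0.642 and 0.668 CPM in 0D-1 and 0D-2 (log2 change -1.02, edgeR adjusted p = 0.168).

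Several of these genes also answer to cell handling and to cytokines, and those lists moved with libraries and, in some classes, with the groups. The 18 immediate early and dissociation genes had median log2 differences from the 0D mean of -0.26 and 0.90 in transit-amplifying cells of 2D-1 and 2D-2. In stem cells the medians were -0.35 and -0.29 in 2D-1 and 2D-2, against 0.21 and -0.25 in 0D-1 and 0D-2. In enterocytes they were -0.05 and -0.17 in 2D-1 and 2D-2, against 0.20 and -0.23 in 0D-1 and 0D-2. Tuft cells had medians of 0.29 and 0.65 in 2D-1 and 2D-2, against -0.08 and 0.08 in 0D-1 and 0D-2. Those of enteroendocrine cells were 0.13 and 0.34 in 2D-1 and 2D-2, against -0.07 and 0.07 in 0D-1 and 0D-2. The 20 interferon genes were much higher in 2D-1, with class medians of 1.93 to 2.87, against -0.11 to 0.39 in 2D-2. The 2D-2 median was 0.39 in tuft cells, against -0.07 and 0.06 in 0D-1 and 0D-2. It was 0.25 in transit-amplifying cells, against -0.0053 and 0.0050 in 0D-1 and 0D-2. The part of both lists in the Fkbp5, Mt1 and Cebpd differences was not tested. T, NK and innate lymphoid transcripts were scarce in the epithelial classes. In enterocytes the 11 markers summed to 0.403 and 0.144 CPM in 2D-1 and 2D-2 and 0.207 and 0.156 CPM in 0D-1 and 0D-2, and in stem cells they were at 0 in all 4 libraries. Of 9 myeloid markers 3 were detected in stem cells, with sums of 27.3 and 20.1 CPM in 2D-1 and 2D-2 and 25.9 and 30.0 CPM in 0D-1 and 0D-2.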

How the data were processed

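Per the labels' protocols, 10 mM EDTA freed the crypts, a 70 µm strainer removed clumps, and libraries were made with a 10x 3′ version 2 kit. The deposited files hold UMI counts per gene and cell barcode. The submitters' processing notes name Cell Ranger 2.1.1 and mm10, while the file header names cellranger 7.0.0. Barcodes under 500 genes or above 20% mitochondrial UMIs were left out. Doublets were scored with an expected share of 0.08 and all cells were kept, because the caller marked 0 cells in 2D-2. From 1997 variable genes, with the members left out, 30 principal components and 15 neighbours gave 25 Leiden clusters at resolution 1 (scanpy 1.11.5). A cluster was named when at least 3 markers reached 10 CPM and a 2-fold excess. CPM were computed from the UMIs of a class in a library. Counts summed by library and class were tested with edgeR 4.0.16 (quasi-likelihood, TMM, filterByExpr, Benjamini-Hochberg over all genes, threshold 0.05), so fitted changes can differ from ratios of CPM. Standard errors were taken from the F statistic. Scripts were tested on simulated data. Alternatives were DESeq2 1.42.0, other scalings, no filter, other cell filters and clusterings, thinning to 2000 UMIs, and each library left out, where the lone library is assumed to vary like the others. With 2 libraries a group an exact permutation test cannot go below p = 0.333, so none is given for single values. Correlations used log2(CPM + 1). Intervals and limits at 3 counts cover counting error only. The genes named are the 9 members, list genes that passed the threshold or had the smallest p in a fit, and the 2 genes most alike to each member, of which 1 is not reported here. Genes of steroid handling named for their levels (Nr3c2, Hsd11b1, Cyp11a1, Cyp11b1, Hsd3b1 and Nr5a2) fall outside that rule and were chosen after their values were seen. The members and lists were chosen with earlier results of these data known.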

Additional observations from a re-analysis of the deposited data

Results flagged for a closer look

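The change of Fkbp5 between 2D and 0D differed between the 7 classes in a joint fit (edgeR adjusted p = 0.0223), and a difference of effects between classes is what singled it out. The fitted log2 changes ran from 0.22 in enteroendocrine cells to 1.63 in enterocytes. The adjusted p was above 0.05 with DESeq2 (0.0742) and without 0D-1 (0.414), 0D-2 (1) or 2D-1 (0.0760).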

How the results depend on the processing

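Over 21 member results and 276 alternatives, 226 kept direction and side of the threshold, 39 passed it newly and 11 changed sign; the causes were not tested. None of the 21 passed in the chosen fit, so none could lose a call. Sign changes in all cells were Tsc22d3 (0.0022 without 0D-1, 0.10 without 2D-2, 0.040 at 10% mitochondrial UMIs), Sgk1 (-0.016 with library totals, -0.084 without 2D-2), Klf9 (-0.047 without 2D-2), Mt2 (0.033 without 0D-1) and Hsd11b2 (-0.059 with library totals, -0.032 without 0D-1, -0.0018 without 2D-2). Mt2 in Paneth cells was 0.45 in thinned cells. With a library left out, these all-cell changes ran from -0.14 to 0.10 for Tsc22d3, -0.084 to 0.27 for Sgk1, -0.047 to 0.39 for Klf9, -0.76 to 0.033 for Mt2 and -0.032 to 0.14 for Hsd11b2.

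Genes called in all cells, 0 in the chosen fit, were 765 with DESeq2, 23 in thinned cells and 0 to 4045 with a library left out, and members 0 to 2. Member and class pairs called, 0 in the chosen fit, were 1 with DESeq2, 6 with no filter, 1 at 10% mitochondrial UMIs, 1 at resolution 0.5, 1 with gates, 1 in thinned cells, 4 in single clusters and 1 to 14 with a library left out. Gene calls over classes, 148, were 344 with DESeq2, 1363 with no filter, 71 with top doublet scores left out, 95 with gates and 164 to 9642 with a library left out. Members whose change differed between classes, 1, were 0 with DESeq2, 4 with no filter, 2 in thinned cells and 0 to 3 with a library left out. Such genes, 61, were 645 with no filter, 27 with gates, 147 in thinned cells and 1 to 2304 with a library left out. The adjusted p for Fkbp5 was 0.0742 with DESeq2 and 5.56e-05 to 1 with a library left out. Log2 ratios from class sizes moved for Zbtb16 (0.12 at resolution 0.5, 0.37 with gates), Sgk1 (-0.16 at both) and Mt2 (-0.15 with gates).

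The labels do not say that equal replicate numbers share an animal or a day, and the deviations of same-numbered libraries correlated by 0.0651 in all cells. With the replicate number as a block, 5 member and class pairs and 1141 genes over classes passed. With 2 libraries a group, a p that misses the threshold does not show that levels were alike, and Zbtb16 is limited by its few UMIs.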
